A study of Mus musculus with 8 samples.

Results

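The 10 genes described here take part in nucleotide, folate, sugar, iron and lipid metabolism. They are Impdh1, Ggh, Ahcyl2, Galt, Gne, Grhpr, Aco1, Hilpda, Decr1 and Ttpa, and they were chosen by symbol. Each matched 1 of the 49585 rows of the count table, and all 10 passed the filter on low counts. The cells were mouse bone marrow leukemia cells labelled MA9, usual shorthand for the MLL-AF9 fusion oncogene, and were grown in serum with interleukin 3, interleukin 6 and stem cell factor. They carried either Gata2 f/f, alleles flanked by recombination sites, or Gata2 -/- (Gata2 KO), the loss of a transcription factor of blood progenitors. Polyadenylated RNA was sequenced in 4 libraries of each genotype. The labels name no Cre, clone, age or animal for either genotype, so the p-values measure the spread between these libraries, which may be technical.

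Most of these genes encode enzymes, of several branches of small-molecule metabolism. Impdh1 makes the precursor of guanine nucleotides, which dividing cells need for nucleic acids and signalling. Ggh trims the glutamate tail that keeps folates, the carriers of single carbons for nucleotide synthesis, inside the cell. Galt and Gne work on sugars that end in glycoproteins, and Aco1 is both an aconitase and a regulator of messenger RNAs of iron metabolism. Hilpda, Decr1 and Ttpa handle stored fat, unsaturated fatty acids and vitamin E.

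The start of Impdh1 is shown because this gene had the smallest adjusted p of the 10. The table of RefSeq promoters for GRCm38.p6 matched 7 of the 10 genes, with 13 starts, and Ggh, Decr1 and Ttpa had no entry. Each stretch is the 250 bases before a start, 5′ to 3′ on the strand of the gene. Capitals mark a GATA motif on either strand, spelled AGATAA with the first letter also allowed to be T and the last also G, or a GC box, spelled GGGCGG, on either strand. The motifs share no letters in the stretches shown. Of the 3 starts of Ahcyl2, 1 is shown because it holds a GATA motif. A further one also holds a GATA motif, and no GC box, and is not printed because it overlaps an annotated UTR.
Impdh1, outer start (chr6:29216365-29216614, minus strand): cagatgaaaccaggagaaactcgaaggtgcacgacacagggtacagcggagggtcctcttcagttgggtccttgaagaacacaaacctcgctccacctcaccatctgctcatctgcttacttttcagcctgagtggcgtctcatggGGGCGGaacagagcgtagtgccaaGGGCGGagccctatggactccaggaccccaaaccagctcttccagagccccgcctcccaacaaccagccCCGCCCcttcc
Impdh1, inner start (chr6:29212298-29212547, minus strand): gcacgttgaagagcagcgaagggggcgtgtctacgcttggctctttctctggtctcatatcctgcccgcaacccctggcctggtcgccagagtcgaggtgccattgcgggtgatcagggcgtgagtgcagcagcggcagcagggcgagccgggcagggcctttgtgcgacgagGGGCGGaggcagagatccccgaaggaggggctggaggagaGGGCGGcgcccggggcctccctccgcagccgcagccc
Ahcyl2, inner start (chr6:29853491-29853740, plus strand): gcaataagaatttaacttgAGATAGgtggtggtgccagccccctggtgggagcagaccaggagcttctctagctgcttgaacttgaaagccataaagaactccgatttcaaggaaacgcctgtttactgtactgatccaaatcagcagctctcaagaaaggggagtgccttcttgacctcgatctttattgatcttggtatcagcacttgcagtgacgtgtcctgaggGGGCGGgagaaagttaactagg
The outer Impdh1 stretch held 3 GC boxes and the inner one 2, and neither held a GATA motif in these 250 bases. A GATA motif was found at 2 of the 13 starts, both of Ahcyl2, and in 26.5% of the 32851 promoters of the table. A GC box was found at 8 of the 13 starts and in 32.7% of all promoters. These matches describe letters only. The G and C share of the 13 stretches ran from 41.2% to 70.8%.

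Total counts ran from 1610369 to 6237748 per library, and the libraries numbered 4 in both genotypes were apart from the others along the second principal component (29.1% of the variance). Many rows of the table do not hold the gene they name. Of 630 genes of families that every cell uses, 409 were under 1 CPM (counts scaled to a common library total) in the pooled libraries, and Actb held 10 counts. Markers of myeloid leukemia cells could not check the cell type, since 10 of 14 such rows were under 1 CPM, with 9 counts for Mpo and 3 for Kit. The Gata2 row held 4 counts in all 8 libraries and does not check the genotypes. By row name, the summed myeloid markers ran from 458 to 562 CPM in Gata2 f/f and from 677 to 737 CPM in Gata2 KO. All 8 erythroid rows were under 1 CPM, and the summed T and NK cell rows (17.3 to 26.1 against 18.3 to 25.2 CPM) and B cell rows (40.3 to 44.9 against 40.2 to 47.1 CPM) overlapped between genotypes. The mast cell and basophil rows summed to 1942 to 3008 CPM in Gata2 f/f and 1458 to 2339 in the other genotype, the megakaryocyte rows to 3.38 to 8.39 against 7.72 to 48.7, and the stromal and endothelial rows to 241 to 292 against 280.1 to 344, with ranges that overlapped in each case. Mitochondrial rows took 3.58 ± 0.329% of counts in Gata2 f/f and 4.40 ± 0.341% in Gata2 KO (SD, n = 4 each, exact two-sided permutation p = 0.0286, the smallest that 70 groupings allow). Swapping genotypes only within a replicate number gave an exact permutation p = 0.125, the smallest that 16 swaps allow. The part of these marker and mitochondrial shifts in the results below was not tested. In these bulk samples fewer cells of a type and less RNA per cell cannot be told apart.

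The 10 genes lie where row names could be read. They fall between Rps20 and Mrpl50 on chromosome 4 (3831334 to 49521093 in GRCm38) and between Ndufa4 and Ube2h on chromosome 6 (11900292 to 30304539). All 16 ubiquitous genes in the former and all 6 in the latter were at 20 CPM or more in the pooled libraries. The ends of both stretches were set after these counts were seen, so the counts describe the choice and do not test it. Srsf12, of a ubiquitous family but restricted to some tissues, was left out after its count was seen. The nearest neighbours also fell into counted and silent genes. Beside Gne (chromosome 4, 44034075 to 44084177), the clathrin light chain gene Clta was at 3110 CPM and the sperm gene Ccin at 0. Beside Ahcyl2 (chromosome 6, 29768011 to 29912310), Nrf1 was at 410 CPM and Smo at 0.0776. Next to Decr1 (chromosome 4, 15917240 to 15945507), the DNA repair gene Nbn was at 198 CPM (pooled) and the neuronal calcium-binding gene Calb1 at 0.116. For Decr1, Ggh and Ttpa the nearest ubiquitous genes were Ndufaf6, at 84.5 CPM, and Ndufaf4, at 342 CPM. These lie 4.83 to 8.97 Mb away, so the names of these 3 genes are less closely checked than the others.

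Counts below are CPM scaled by the trimmed mean of M values (TMM). Between genotypes, Impdh1 and Ttpa fell and Ggh rose in Gata2 KO, and the other 7 genes did not pass an adjusted p of 0.05. The share of all 6580 rows tested that passed was 12.5%, 8.97% higher and 3.53% lower in Gata2 KO (quasi-likelihood test of edgeR, p-values adjusted by Benjamini-Hochberg). Among the 253 tested rows of the stretches with readable names it was 12.3%, with 9.49% higher and 2.77% lower. These rows include a further stretch, on chromosome 15 between Cct5 and Atp6v1c1. It was chosen in the same way, and its 7 ubiquitous genes were at 25.6 CPM or more in the pooled libraries. In the fit that blocks on replicate number, 6 of the 10 passed, against 35.5% of all rows and 45.5% of those in the readable stretches. Of these, Ggh and Aco1 were higher (18.8% of all rows were, and 21.3% in the stretches), and Impdh1, Ttpa, Gne and Hilpda were lower (16.7% of all rows were, and 24.1% in the stretches). The median log2 fold change was -0.15 over the 10 genes, and -0.01 over all rows tested. Neither count is evidence about these genes as a set, since they were chosen with earlier results known. No overlap between genotypes was seen for 5 of the 10, Impdh1, Ggh, Ttpa, Gne and Aco1, against 19.1% of all rows and 19.8% in the stretches. Scaled by library totals in place of TMM, the count was also 5, but with Hilpda in the place of Gne.

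**Figure D1:**
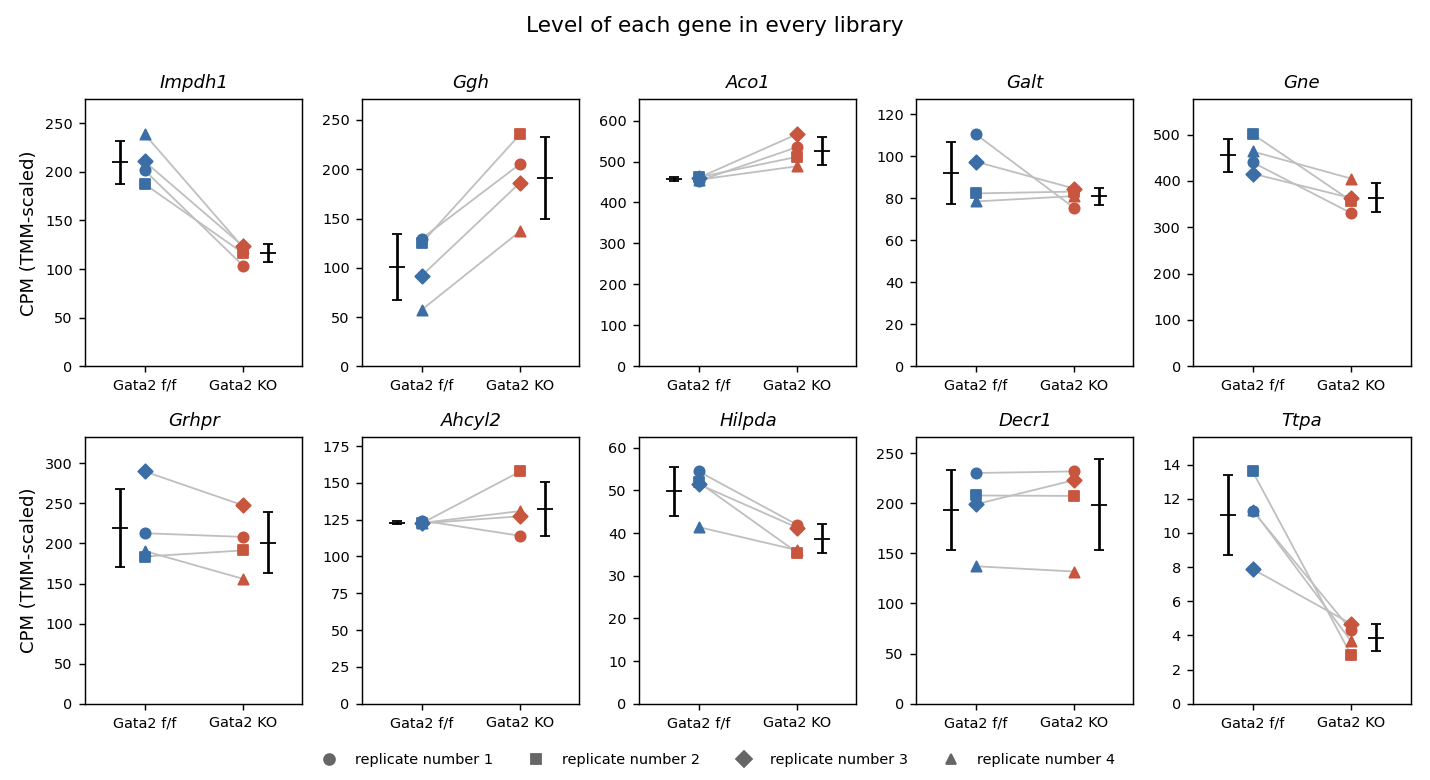
TMM-scaled CPM (vertical axis, from 0) of the 10 genes in the 4 Gata2 f/f libraries (blue) and 4 Gata2 KO libraries (red), with grey lines joining equal replicate numbers and black marks for the mean and SD. Impdh1 and Ttpa lie lower in all Gata2 KO libraries and Ggh lies higher, while Decr1 differs more between replicate numbers than between genotypes.

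Impdh1 (ENSMUSG00000003500.13, chromosome 6, 29200434 to 29216364, minus strand) encodes inosine monophosphate dehydrogenase, the enzyme that limits guanine nucleotide synthesis. Its level was 201, 187, 211 and 239 CPM in Gata2 f/f replicates 1 to 4. The Gata2 KO libraries, in the same order, had 103, 116, 123 and 122 CPM. Every Gata2 KO library was below every Gata2 f/f library, with the highest at 123 and the lowest at 187 CPM. The log2 fold change was -0.85 ± 0.11 (SE, 95% interval -1.10 to -0.60, adjusted p = 0.000578, edgeR), or 1.80-fold lower. Within replicate numbers the log2 ratio ran from -0.97 to -0.69, a narrow range. The call held in all 14 alternative settings run. The row named Impdh2, the other isozyme, lies outside the readable stretches and was at 28.3 CPM in Gata2 f/f and 35.2 in Gata2 KO (adjusted p = 0.471, edgeR).

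Ggh (ENSMUSG00000073987.4, chromosome 4, 20042052 to 20066750, plus strand) encodes gamma-glutamyl hydrolase, a lysosomal enzyme that shortens folates and antifolate drugs so that they can leave the cell. Gata2 f/f replicates 1 to 4 had 129.5, 125, 91.8 and 57.2 CPM. Gata2 KO replicates 1 to 4 had 205, 236, 187 and 137 CPM. The genotypes did not overlap, but the highest Gata2 f/f library, at 129.5 CPM, lay close to the lowest Gata2 KO library. In both genotypes the library numbered 4 was the lowest. The log2 fold change was 0.94 ± 0.24 (SE, adjusted p = 0.0266, edgeR), and 0.98 ± 0.09 with the block (adjusted p = 1.77e-07, edgeR). All 4 replicate numbers had a positive log2 ratio, from 0.67 to 1.26. Leaving out any of Gata2 KO replicates 1, 2 and 3, or else replicate 3 of Gata2 f/f, ended the call (adjusted p = 0.063 to 0.0883, edgeR).

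Ttpa (ENSMUSG00000073988.13, chromosome 4, 20007938 to 20030785, plus strand) encodes the alpha-tocopherol transfer protein, known for keeping vitamin E in circulation from the liver. Its row was the lowest of the 10, with 22, 22, 17 and 67 counts in Gata2 f/f replicates 1 to 4. Gata2 KO replicates 1 to 4 had 8, 6, 19 and 24 counts. As TMM-scaled levels these were 7.89 to 13.6 CPM in Gata2 f/f and 2.83 to 4.67 CPM in Gata2 KO, with no overlap. The log2 fold change was -1.49 ± 0.26 (SE, adjusted p = 0.00291, edgeR), or 2.81-fold lower, and the call held in all 14 alternative settings run. Ratios within replicate numbers were widely spread, from -2.26 to -0.76 on the log2 scale. A level equal to 3 counts corresponds to 0.481 to 1.86 CPM over the libraries, so the Gata2 KO levels rest on few counts. Ttpa and Ggh are neighbours on the same strand, with 11266 bases between them, and differed in opposite directions.

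**Figure D2:**
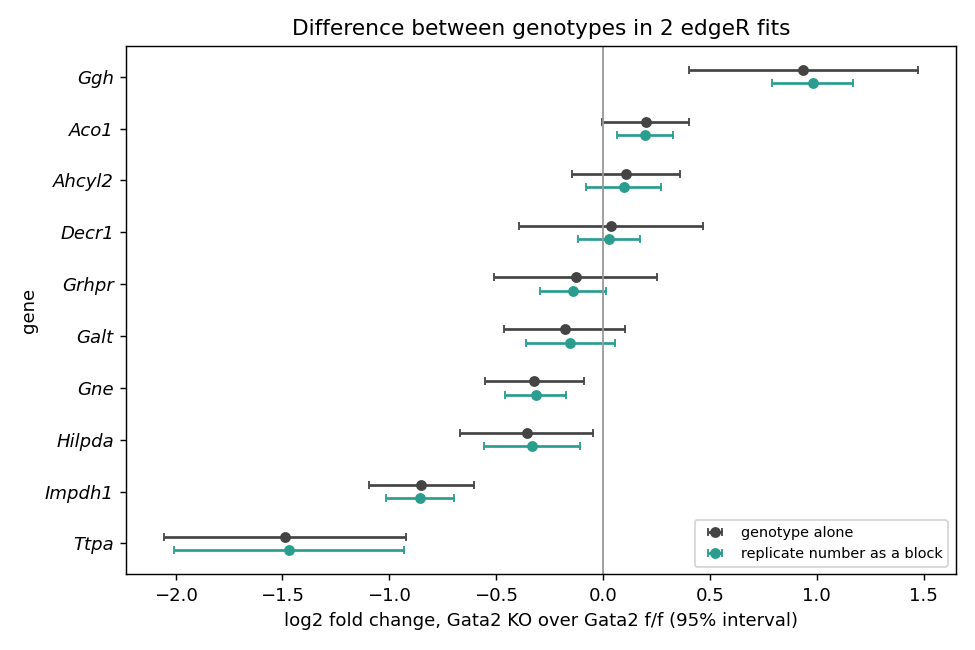
Log2 fold change of each gene, Gata2 KO over Gata2 f/f (horizontal axis), with 95% intervals from the edgeR fit with genotype alone (grey) and with the replicate number as a block (green). Ttpa and Impdh1 lie furthest below 0 and Ggh furthest above it, and the block narrows the intervals of most genes with little movement of the estimates.

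Of the sugar genes, Gne (ENSMUSG00000028479.18) encodes the enzyme with epimerase and kinase activity that starts sialic acid synthesis. Gata2 f/f replicates 1 to 4 had 439.9, 501, 416 and 463 CPM, and Gata2 KO replicates 1 to 4 had 330.3, 357, 363 and 405 CPM. The genotypes did not overlap, although the lowest Gata2 f/f and the highest Gata2 KO library were close. Gne did overlap when scaled by library totals, with Gata2 f/f replicate 1 at 413 CPM and Gata2 KO replicate 4 at 427 CPM. Its log2 fold change of -0.32 ± 0.11 (SE) did not pass (adjusted p = 0.0709, edgeR), and passed with the block (adjusted p = 0.00139, edgeR). Later steps of the same pathway were measured too. Nans, the sialic acid synthase gene, was at 1199.6 ± 165 CPM in Gata2 f/f and 1157 ± 83.3 in Gata2 KO (SD, n = 4 each), and its difference of -0.05 on the log2 scale had a 95% interval from -0.32 to 0.22. Slc35a1, the carrier of activated sialic acid into the Golgi, was at 105 ± 21.2 and 100.5 ± 18.4 CPM, with a log2 difference of -0.05 (95% interval -0.43 to 0.32).

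Galt (ENSMUSG00000036073.17, chromosome 4, 41755228 to 41758695, plus strand) encodes the uridylyltransferase of galactose breakdown. It was at 110.5, 82.3, 97.4 and 78.4 CPM in Gata2 f/f replicates 1 to 4. The Gata2 KO libraries, in the same order, had 75.3, 83.1, 84.5 and 81.0 CPM, and the genotypes overlapped. The log2 difference was -0.18 (95% interval -0.46 to 0.10, adjusted p = 0.44, edgeR). Its sign differed between replicate numbers, with 2 above and 2 below 0. Galt lies wholly within the annotated span of Il11ra1, on the same strand, so some reads of these genes may not be told apart there. Whether their exons overlap was not tested. B4galt1, which adds galactose to glycoproteins, rose from 861 ± 32.3 to 1106 ± 63.8 CPM (SD, n = 4 each). Its log2 fold change was 0.36 ± 0.10 (SE, adjusted p = 0.029, edgeR). The call ended when any of Gata2 KO replicates 1, 2 and 3, or of Gata2 f/f replicates 2 and 3, was left out (adjusted p = 0.0763 to 0.105, edgeR), and with no filter on low counts (0.082).

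Grhpr (ENSMUSG00000035637.14, chromosome 4, 44981395 to 44990734, plus strand) encodes a reductase that clears glyoxylate. Gata2 f/f replicates 1 to 4 had 213, 184, 289.9 and 191 CPM. Gata2 KO replicates 1 to 4 had 208, 191, 247 and 156 CPM, and replicate 3 was the highest of each genotype. The genotypes overlapped over most of their ranges, and the log2 difference was -0.13 (95% interval -0.51 to 0.25, adjusted p = 0.719, edgeR).

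Aco1 (ENSMUSG00000028405.9, chromosome 4, 40143081 to 40198338, plus strand) encodes the cytosolic aconitase that binds iron-responsive elements of messenger RNAs when iron is low. Gata2 f/f replicates 1 to 4 had 453, 461, 460.2 and 455 CPM. Gata2 KO replicates 1 to 4 had 535, 512, 567 and 488 CPM, all above the Gata2 f/f libraries. The difference was small, 0.20 ± 0.09 on the log2 scale (SE, adjusted p = 0.202, edgeR), and passed with the block (adjusted p = 0.0195, edgeR). All 4 replicate numbers had a positive ratio, from 0.10 to 0.30. With TMM scaling the Gata2 f/f libraries lay closer together (SD 4.02 CPM) than the Gata2 KO libraries (SD 33.6 CPM). This contrast depends on the scaling. By library totals the Gata2 f/f libraries ran from 426 to 490 CPM and the Gata2 KO libraries from 502 to 559 CPM.

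Ahcyl2 (ENSMUSG00000029772.17), a relative of the hydrolase of S-adenosylhomocysteine that acts on ion transport, passed in neither fit. Its Gata2 f/f libraries ran from 122 to 124 CPM with TMM scaling. The Gata2 KO libraries spanned 114 to 158 CPM, on both sides of them. Scaled by library totals, the Gata2 f/f libraries ran from 117 to 132 CPM. The log2 difference was 0.11 (95% interval -0.15 to 0.36, adjusted p = 0.632, edgeR), and 0.016 without Gata2 KO replicate 2, the highest library.

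Of the lipid genes, Hilpda (ENSMUSG00000043421.8, chromosome 6, 29272488 to 29275446, plus strand) encodes a lipid droplet protein that restrains the breakdown of stored fat and is induced by low oxygen. Gata2 f/f replicates 1 to 4 had 54.5, 52.0, 51.5 and 41.4 CPM, and Gata2 KO replicates 1 to 4 had 42.0, 35.4, 41.3 and 36.0 CPM. Gata2 f/f replicate 4 alone reached into the range of Gata2 KO. Scaled by library totals it did not, at 44.5 CPM against 40.7 CPM in the highest Gata2 KO library. The log2 difference was -0.36 ± 0.14 (SE, adjusted p = 0.132, edgeR), and it passed with the block (adjusted p = 0.0213, edgeR). Hilpda lies 56123 bases from Impdh1.

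Decr1 (ENSMUSG00000028223.8) encodes a mitochondrial reductase needed to burn polyunsaturated fatty acids. Gata2 f/f replicates 1 to 4 had 230.2, 208, 199 and 137 CPM. Gata2 KO replicates 1 to 4 had 232, 207, 223 and 132 CPM. Libraries of equal number were close to each other, and the libraries numbered 4 were the lowest in both genotypes. The log2 difference was 0.04 (95% interval -0.39 to 0.47, adjusted p = 0.938, edgeR). With the block the interval was -0.12 to 0.17.

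**Figure D3:**
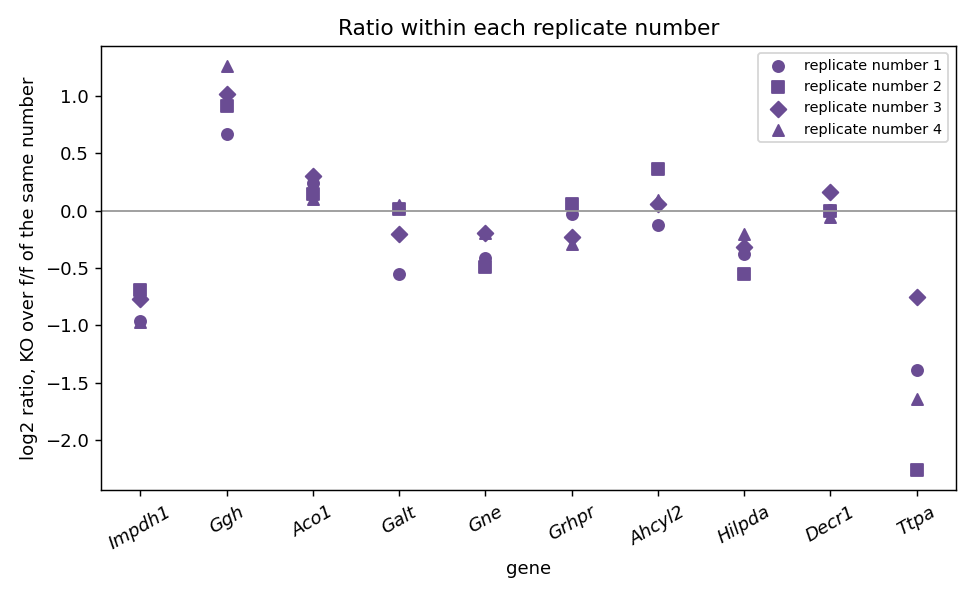
Log2 ratio of Gata2 KO to Gata2 f/f (vertical axis) for each gene within each of the 4 replicate numbers (symbols). All 4 ratios lie on the same side of 0 for Impdh1, Ggh, Aco1, Gne, Hilpda and Ttpa, and on both sides for Galt, Grhpr, Ahcyl2 and Decr1.

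Levels of different genes were compared as CPM per kb of merged exons. In Gata2 f/f the order from high to low was Grhpr (137 CPM per kb), Aco1 (102), Gne (71.6), Impdh1 (63.6), Ggh (51.3), Decr1 (49.9), Hilpda (45.2), Galt (37.3), Ahcyl2 (6.74) and Ttpa (3.17). From Gne to Galt each gene overlapped the next in that order across the 4 libraries, so those neighbours were not separated beyond their spread. Grhpr and Aco1, Aco1 and Gne, Galt and Ahcyl2, and Ahcyl2 and Ttpa did not overlap. In Gata2 KO, Ggh had the third highest mean, at 97.3 CPM per kb, and Impdh1 the sixth, at 35.3. Across the Gata2 KO libraries the range of Ggh overlapped those of Grhpr and Aco1, but not that of Gne. The range of Impdh1 overlapped those of Decr1, Hilpda and Galt, so its place among them was not separated beyond their spread. Merged exons of Ahcyl2 span 18255 bases, and a shorter transcript would have a higher value per kb.

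**Figure D4:**
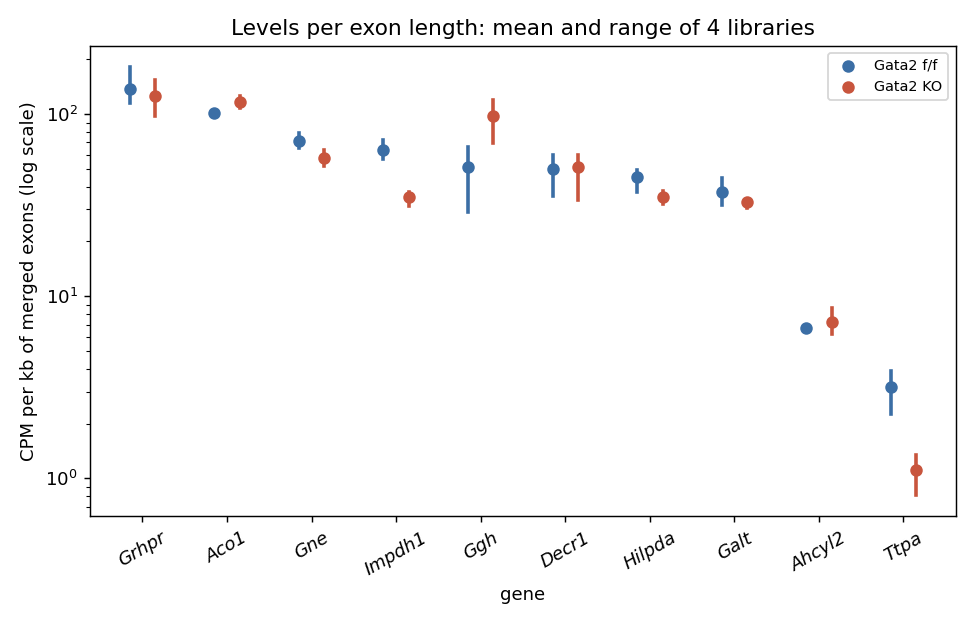
CPM per kb of merged exons on a log axis for each gene, as the mean (point) and range (line) of 4 libraries in Gata2 f/f (blue) and Gata2 KO (red). The means of 8 genes lie between 32.8 and 137 CPM per kb, with Ahcyl2 and Ttpa far below.

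To see which genes behaved most like the 3 that passed, profiles of log2 CPM over the 8 libraries were centred and compared among the 253 tested rows of the readable stretches, those 2 and 1 on chromosome 15 between Cct5 and Atp6v1c1. For Impdh1 the nearest profiles were Tmem64 (root mean square difference 0.12) and Unc13b (0.27). For Ggh they were Cav2 (0.20), a caveola gene, and the transcription factor genes Tfec (0.31) and Klf10 (0.31). For Ttpa they were Unc13b (0.40), Impdh1 (0.41) and Tmem64 (0.47). These are descriptions over libraries that share the genotype difference.

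Other metabolic genes of these stretches were counted too. Of 28 tested, 2 were higher and 0 lower in Gata2 KO (edgeR), and with the block 4 were higher and 8 lower. The shares over all tested rows of the stretches were 12.3% and, with the block, 45.5%, and the counts of both directions together are not above them. By direction, the block shares in the stretches were 21.3% higher and 24.1% lower. The 4 higher are below the former share and the 8 lower slightly above the latter. Their median log2 fold change was -0.04. Beside B4galt1, Stra6l, a relative of the retinol transporter gene, rose to 17.2 ± 5.43 CPM in the absence of Gata2, against 4.13 ± 1.35 CPM with it (SD, 4 libraries each). The difference was 2.08 ± 0.31 on the log2 scale (SE, adjusted p = 0.0013, edgeR). Gata2 f/f replicate 2 was at 2.47 CPM, where 3 counts correspond to 1.86 CPM, so the Gata2 f/f levels of Stra6l rest on few counts. The genes higher with the block alone were Cpq (0.35), a secreted carboxypeptidase, and the aldehyde dehydrogenase gene Aldh1b1 (0.20), given as log2 fold changes of the fit without it. Lower with the block alone were Rida (-0.56), Ndufaf4 (-0.44), Ndufaf6 (-0.36), Ndufa5 (-0.33), Alg2 (-0.31), Impad1 (-0.25), Rars2 (-0.24) and Coq3 (-0.24). These genes have varied roles. Ndufaf4, Ndufaf6 and Ndufa5 belong to or assemble respiratory complex I, while Ndufb6 (-0.015), Ndufa4 (-0.04) and Cox6c (0.06), also of the respiratory chain, passed in neither fit. Nudt2, which splits dinucleotides, was at 126 and 121 CPM and did not pass in either fit.

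**Figure D5:**
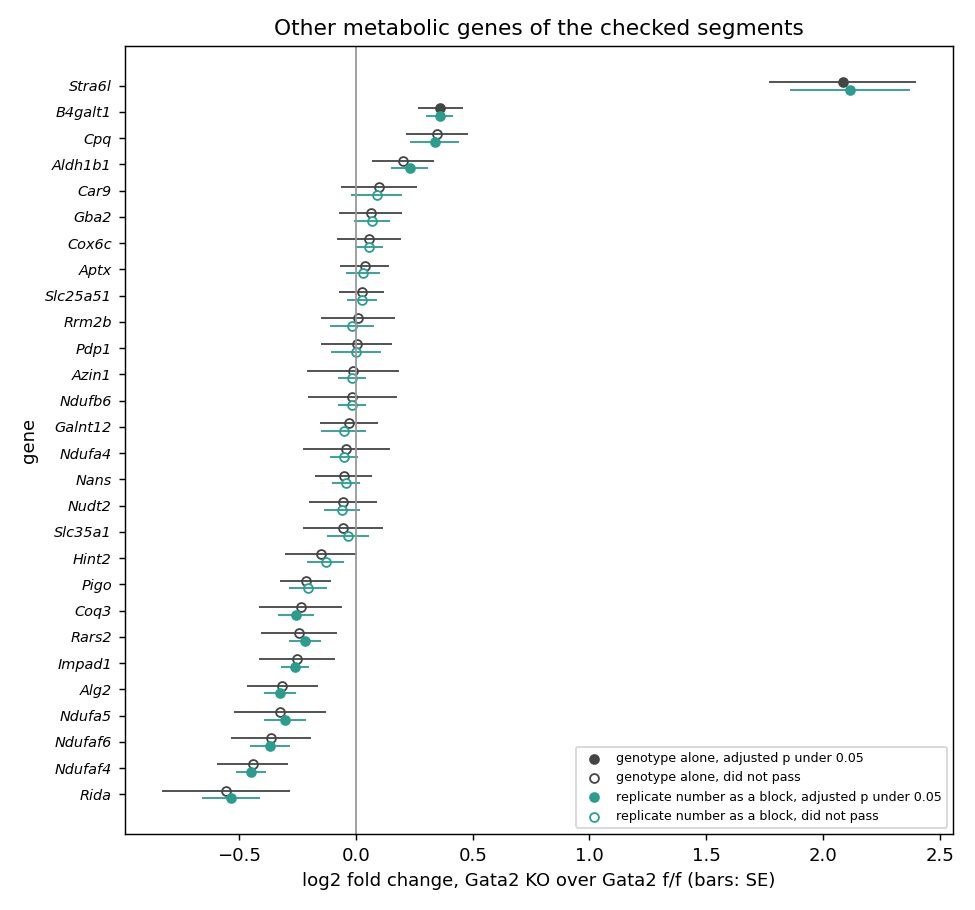
Log2 fold change with SE, Gata2 KO over Gata2 f/f (horizontal axis), of the 28 other metabolic genes tested in the readable stretches, in the edgeR fit with genotype alone (grey) and with the replicate number as a block (green). Filled points passed an adjusted p of 0.05, which with genotype alone were Stra6l and B4galt1.

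Pathway partners of the 10 genes could be followed only in part. The 10 pathway lists hold 183 different genes, of which 112 had a row under 1 CPM and 55 were tested. Of the 55, 14 lie in the readable stretches. The other 41 are names of rows, and 2 of them were higher and 0 lower in Gata2 KO (edgeR), with 8 higher and 7 lower with the block. Over all rows tested the shares were 12.5% and 35.5%, and the counts of these 41 are below the former and close to the latter. Those 2 were the rows named Gda (log2 fold change 0.43, adjusted p = 0.0303, edgeR), of the purine list, and Gnpnat1 (0.84, adjusted p = 0.0196, edgeR), of the UDP-sugar list. In the folate list Ggh alone passed of 7 tested, and in the purine list Impdh1 fell and the row named Gda rose among 8. Ttpa fell among 6 tested of the vitamin E list, B4galt1 and the row named Gnpnat1 rose among 8 of the UDP-sugar list, and Grhpr was the 1 gene tested of the glyoxylate list. The iron list had 5 rows tested, the lipid droplet list 5, the fatty acid oxidation list 7, the sialic acid list 4 and the list around Ahcyl2 5, and none of these passed in the edgeR fit with genotype alone.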

How the data were processed

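A table of raw counts for 8 libraries, in rows of Ensembl genes, was deposited by the authors. The submitters' processing notes name mm10, kallisto, HTSeq and DESeq2, and which of them made the counts is not given in the sources used here. The labels name a NEBNext Ultra II RNA kit and no directional version, so strand was taken as not marked. Columns were matched to samples by description. Coordinates are those of GENCODE M21 (GRCm38), which holds the identifier and version of all 10 genes and of 88.2% of rows. Total counts ranged from 1610369 to 6237748, and floors cover counting error only.

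Genotypes were compared with edgeR 4.0.16 under R 4.3.3 (TMM scaling, the default expression filter with a minimum count of 10, quasi-likelihood F-test, genotype alone), with Benjamini-Hochberg adjustment over the 6580 rows tested. Each SE was taken as the log2 fold change divided by the square root of F. On simulated data the test recovered 84.7% of 98 rows changed 2-fold and 100% of 96 rows changed 4-fold. Of all calls there, 4.79% were false. The simulation used the same dispersion for all rows and no effect of replicate number, so it does not cover differences between replicate numbers.

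Equal replicate numbers come from the sample titles. Deviations from the genotype means correlated at 0.333, 0.213, 0.243 and 0.804 for numbers 1 to 4. All were over 0.1, so the numbers were treated as pairs. The highest correlations with a library of another number were 0.182, 0.182, 0.155 and -0.333. Libraries of unlike number thus also passed 0.1, so this rule does not settle the pairing on which the block rests. What equal numbers share is not in the labels. Profiles were compared on log2(CPM + 0.5). DESeq2 1.42.0 and other settings were alternatives.

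The 10 genes and all lists were chosen with earlier results of these data known. All 10 genes are named. Other metabolic genes are named where they passed in either fit or are partners of the 10, and other rows are at most 2 per pathway list, those with the smallest adjusted p. The 3 nearest profiles are named for each gene of the 10 that passed, except 1 that is not reported here. Impdh2 falls outside this rule and was added after its values were seen. Ndufb6, Ndufa4 and Cox6c also fall outside it and were named to stand beside the complex I genes. The readable stretches were bounded by ubiquitous genes after their counts were seen.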

Additional observations from a re-analysis of the deposited data

Results flagged for a closer look

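Ahcyl2 in Gata2 f/f replicate 1, at 124 CPM, stood apart from the other 3 Gata2 f/f libraries, the nearest of which was at 123 CPM. The gap made up 0.852 of the range of the 4 libraries, above the 95% critical value of Dixon's test. The range itself is narrow, and 1 of 20 groups of 4 libraries was set apart in this way, about what chance gives. Scaled by library totals in place of TMM, Gata2 f/f replicate 1 was instead the lowest of the 4 Gata2 f/f libraries for Ahcyl2, at 117 CPM.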

How the results depend on the processing

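Over 14 alternatives for each of the 10 genes, 123 of 140 values kept direction and side of the threshold, 9 newly passed, 4 no longer passed and 4 changed sign. With the replicate block, 2339 rows passed (1237 higher, 1102 lower) in place of 822, as did 6 of the 10 genes (2 higher, 4 lower) and 12 of the other metabolic genes. It changed no other call among the 10. Without both libraries numbered 4, 1437 rows passed (894 higher, 543 lower) and 5 other metabolic genes. With the block and without them, the numbers were 1727 rows (1016 higher, 711 lower), 6 of the 10 genes (2 higher, 4 lower) and 10 other metabolic genes. Leaving out 1 library at a time gave 548 to 1103 rows, 420 to 722 higher and 120 to 381 lower, with 2 to 4 of the 10 genes, 0 to 1 higher, and 1 to 5 other metabolic genes. The log2 difference of Grhpr then ran from -0.25 to 0.032 (without Gata2 f/f replicate 3) and that of Decr1 from -0.11 to 0.20. For Ahcyl2 it ran from 0.016 (without Gata2 KO replicate 2) to 0.17 (without Gata2 KO replicate 1), and for Galt from -0.26 (without Gata2 f/f replicate 4) to -0.084 (without Gata2 f/f replicate 1). Decr1 was at -0.045 and -0.030 without Gata2 KO replicates 1 and 3. Gne passed also with DESeq2 (adjusted p = 0.0192), without Gata2 KO replicate 4 (0.0421, edgeR) and without both libraries numbered 4 (0.0124, edgeR). The mitochondrial share differed by 0.815 percentage points, with exact permutation p = 0.125 when genotypes were swapped within replicate numbers (the replicate block). Why these values moved was not tested. Depth limits Ttpa most, with 6 to 67 counts per library.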
